A study of Homo sapiens with 2 samples.

Results

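The 31 genes described here encode the isozymes of glycolysis, the PFKFB regulators, the lactate dehydrogenases and a set of glucose and monocarboxylate transporters, taken by symbol from the 58302 genes listed in the files. All 31 symbols were found once. RNA-seq libraries were made from A549 cells, a human lung adenocarcinoma line in long use, grown in F12K medium with serum. One library carried the control genotype of the overexpression experiment, and the other overexpressed PGC-1α, a coactivator of transcription that PPARGC1A encodes. The construct, the time after its introduction, and whether the cells were a clone or a pool are not given in the labels. With 1 library per group, no difference has a replicate check. Ratios describe these 2 libraries, and intervals cover counting error only, except those of a list's median.

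Glycolysis splits glucose into pyruvate in the cytosol and yields ATP without oxygen. Most of its steps can be run by several isozymes, encoded by separate genes that differ in tissue pattern and regulation. Lactate dehydrogenase and the monocarboxylate transporters then turn pyruvate into lactate and move it across the membrane, a route used heavily by many tumour cells even with oxygen present. PGC-1α is best known for raising genes of mitochondrial respiration, which takes up the pyruvate that glycolysis makes.

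The control library summed to 27125084 counts and the PGC-1α library to 24334768. PPARGC1A had 5 control counts and 4654 with PGC-1α, which matched the labels. Of 11 epithelial and A549 markers, 8 were measured, among them the keratin gene KRT8 at 3868 and 3899 CPM; CPM is the count scaled to a normalised library size of 1e6. The lung lineage gene NKX2-1 was at 0 counts in both libraries, and the surfactant genes SFTPB and SFTPC had 5 counts or fewer in each. Of these 8 markers, 4 were lower in the PGC-1α library, KRT19 at a log2 ratio of -1.13, CDH1 at -0.95, AKR1C1 at -0.72 and AKR1B10 at -0.60. By the same 1.5-fold rule, 3.92% of all measured genes were lower. The other 4 markers were neither, with EPCAM at 0.58 (0.17 to 0.99), KRT8 at 0.01, KRT18 at -0.09 and CD24 at -0.43. The 13 markers of immune, endothelial, stromal, liver and red blood cells summed to 8.40 CPM in the control and 6.28 with PGC-1α, and of the 2 measured, the monocyte gene CD14 was lower at -0.82. PTPRC, CD3E, PECAM1, VWF, CDH5, DCN, ALB and HBB each had 2 counts or fewer in each library. Of the other stromal markers, LUM had 14 control counts and 31 with PGC-1α, at a log2 ratio of 1.29 (0.37 to 2.34) and a mean below 1 CPM, COL3A1 had 30 and 24 counts, and PDGFRB had 15 and 7. The part of these marker differences in the results below was not tested.

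The genes that differed most between the libraries belonged to glucose transport and the steps down to aldolase. SLC2A1, PFKP and PFKFB3, the main genes of glucose transport, phosphofructokinase and the PFKFB regulators, were nonetheless within 1.5-fold. So was every measured gene from TPI1 to the lactate transporters. A gene counted as measured when its mean over the 2 libraries was at least 1 CPM, and as higher or lower when the normalised counts differed at least 1.5-fold and the 95% interval excluded a ratio of 1. By this rule 29 of the 31 genes were measured, 9 were higher in the PGC-1α library, 0 were lower and 20 were neither. Over all 14154 measured genes, 5.3% were called higher and 3.92% lower. No replicated test could be fitted, so the 0 has no p-value beside it, and HKDC1, at 1.49-fold lower, lay just short of the threshold. The 9 higher genes were SLC2A3, GPI, PFKM, ALDOC, SLC2A8, HK1, PFKFB4, ALDOA and HK2. With a mean of at least 5 CPM, 7 of 27 genes were higher, against 3.44% of all genes. At a looser threshold, a log2 ratio of 0.32 either way, 15 of the 29 were higher and 1 lower, against 11.3% and 9.35%. In such bulk libraries, a change in RNA per cell and a change in the share of cells that express a gene cannot be told apart. Of the 29 genes, 22 (75.9%) had a log2 ratio above 0, against 49.0% of all measured genes. Among these 22, 21 had an interval that excluded a ratio of 1. The median log2 ratio of the 29 genes was 0.33 (0.06 to 0.63), against -0.01 for all measured genes. The interval of this median reflects the spread over the chosen genes and is no test of a shift. Together the 31 genes took 2.18% of all counts in the control (Wilson interval 2.18 to 2.19) and 2.52% in the PGC-1α library (2.51 to 2.53).

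**Figure D1:**
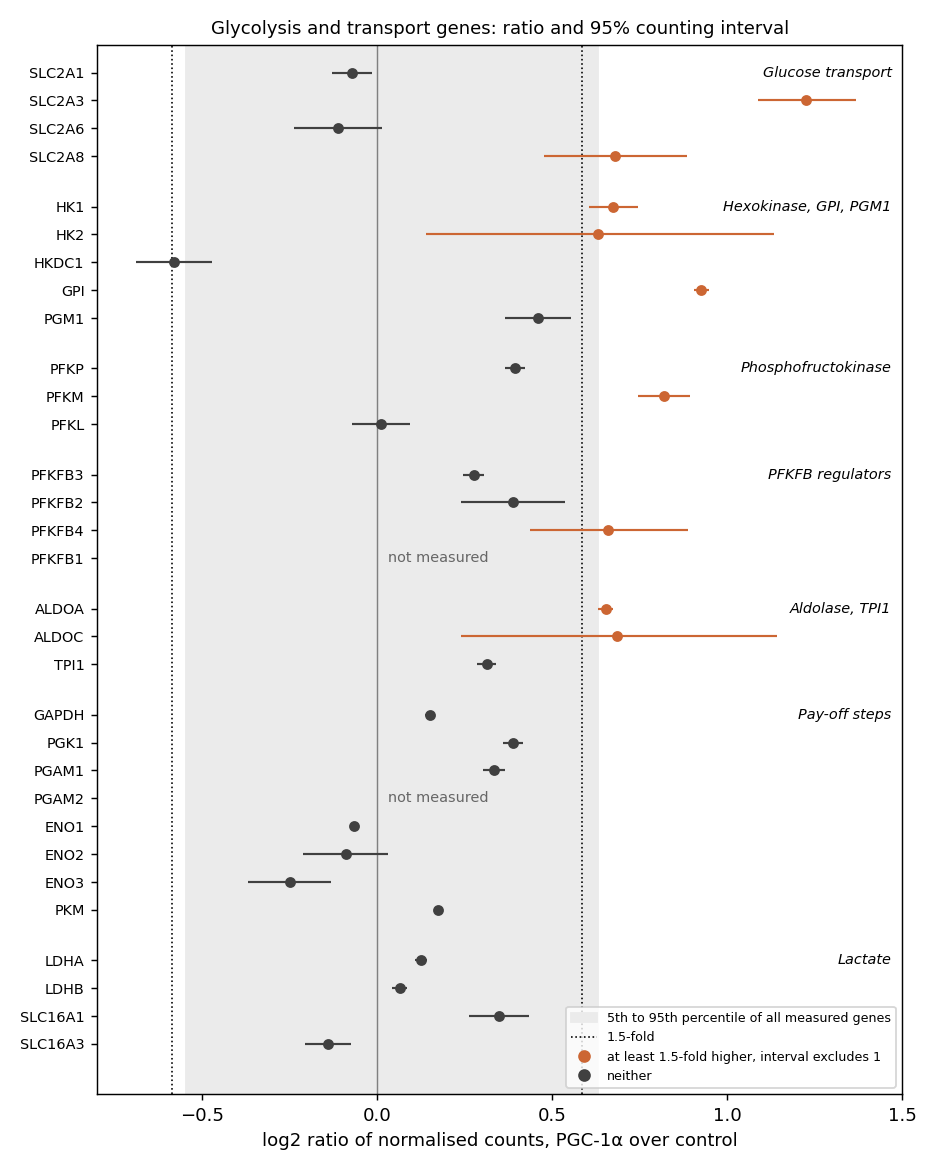
Log2 ratio of TMM-normalised counts, PGC-1α library over control, for each gene by step, with bars for the exact 95% counting interval, dotted lines at 1.5-fold and a grey band from the 5th to the 95th percentile of all measured genes (-0.54 to 0.63). SLC2A3 at 1.23, GPI at 0.93 and PFKM at 0.82 lie farthest right, and HKDC1 at -0.58 farthest left.

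Per gene length the pathway was dominated by a few very abundant transcripts. FPKM divides by the listed gene length, not that of the expressed transcript, so levels and shares of different genes depend on it. On the authors' FPKM scale, GAPDH stood highest, at 1156 in the control and 1265 with PGC-1α, followed by ENO1 at 988 and 932. PKM, at 530 and 590, and LDHB, at 438 and 452, came next. In all, 12 of the 31 genes had a mean of at least 100 FPKM, and of these 12 all but GPI and ALDOA were within 1.5-fold. GPI moved from rank 314 among all genes by FPKM in the control to rank 153 in the PGC-1α library, and ALDOA from 179 to 103. At the other end, PGAM2 had 0 counts in both libraries, and PFKFB1 had 15 and 9 counts; these are the 2 genes that were not measured. All 857 exon bases of PGAM2, the muscle-type mutase gene, are shared with DBNL on the other strand, so its 0 is uncertain. A count of 0 allows up to 3 counts, or a level of 0.110 CPM (control) and 0.124 CPM (PGC-1α).

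**Figure D2:**
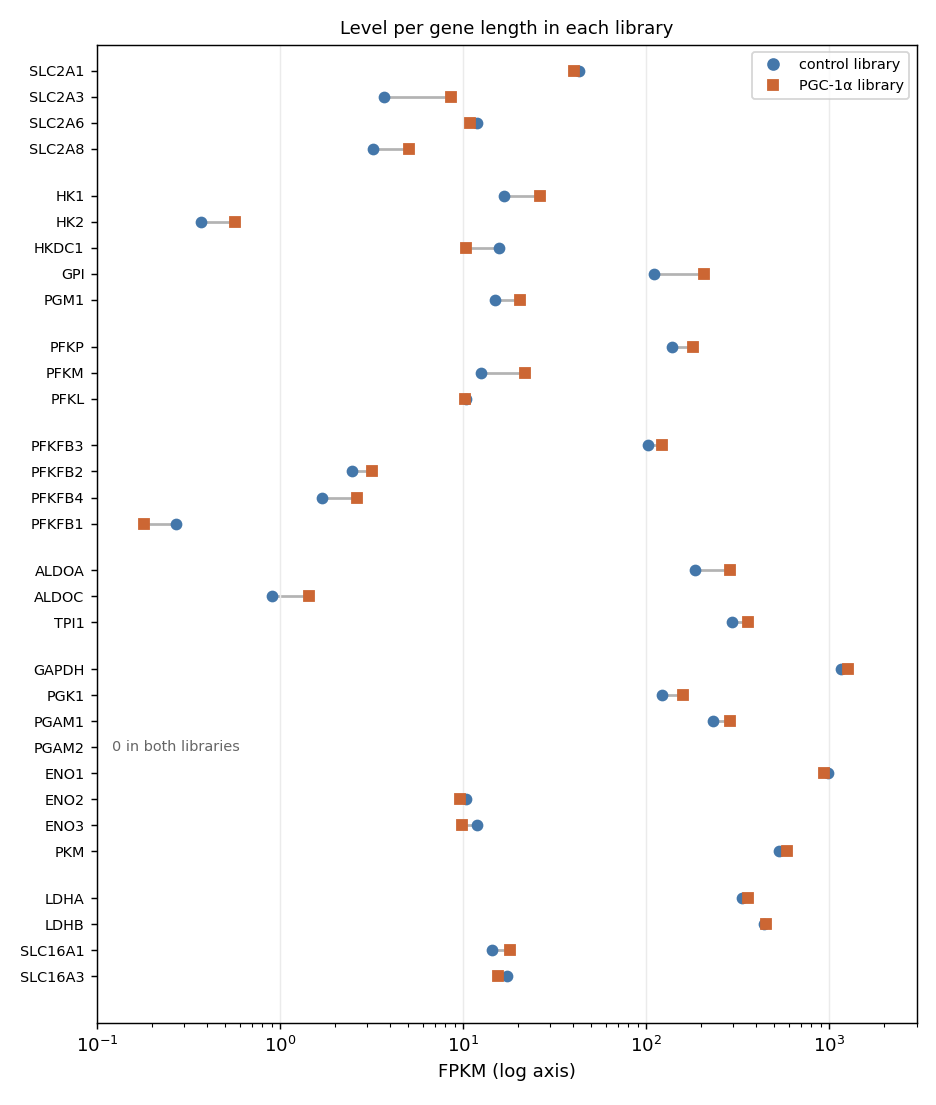
FPKM of each gene in the control library (circles) and the PGC-1α library (squares) on a log axis, 1 library per group. GAPDH, ENO1 and PKM lie at the right in both libraries, and the widest gaps are those of SLC2A3, GPI and PFKM.

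Glucose enters cells through the SLC2A (GLUT) transporters. SLC2A3, the GLUT3 gene of high-affinity uptake known best from neurons (chromosome 12, 7919230 to 7936275), had 616 control counts and 1280 with PGC-1α, or 22.6 and 52.9 CPM. Its log2 ratio was 1.23 (1.09 to 1.37), the only one of the 29 past 2-fold, a bound that 1.75% of all measured genes passed upward. SLC2A8, encoding GLUT8 of intracellular membranes, had 341 and 485 counts, at a log2 ratio of 0.68 (0.48 to 0.88). SLC2A1, the GLUT1 gene of basal uptake, had 5518 and 4657 counts, at a log2 ratio of -0.07 (-0.13 to -0.02). SLC2A6, encoding GLUT6, had 1139 and 935 counts and stood at -0.11, and its interval of -0.24 to 0.01 included 0. The minor transporter genes SLC2A3 and SLC2A8 were thus higher, while the main one was within 1.5-fold.

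The summed transporter level differed little. The 4 genes summed to 61.9 FPKM in the control and 64.9 with PGC-1α. SLC2A1 held 69.7% of that sum in the control and 62.4% with PGC-1α, and SLC2A3 went from 5.96% to 13.1%. The odds of an SLC2A3 count against an SLC2A1 count were 2.46 times as high in the PGC-1α library (2.22 to 2.74); such an odds ratio of 2 genes does not depend on how the libraries are scaled. SLC2A14, a near-identical copy of SLC2A3, had 6 and 4 counts, and with all listed copies summed the log2 ratio of SLC2A3 was 1.22.

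Hexokinase, which traps glucose as glucose-6-phosphate, showed the largest shift of isozyme share among the steps with several genes when counted in percentage points of summed FPKM. HK1, the widely expressed isozyme that docks on mitochondria (chromosome 10, 69269984 to 69401882), had 2752 control counts and 3900 with PGC-1α. Its log2 ratio was 0.68 (0.60 to 0.75). HKDC1, a further hexokinase gene (chromosome 10, 69220303 to 69267559), had 1821 and 1081 counts, at a log2 ratio of -0.58 (-0.69 to -0.47). Its interval spans the 1.5-fold threshold, and it is lower by that rule under the scaling of DESeq2 or by total counts, both at -0.60. HK2, the isozyme often induced in tumours, was scarce, with 61 and 84 counts. Its log2 ratio of 0.63 (0.14 to 1.13) has a wide interval.

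Per length, HK1 and HKDC1 were nearly level in the control, at 16.7 and 15.8 FPKM, and far apart in the PGC-1α library, at 26.4 and 10.4 FPKM. The listed lengths were 6073 bases for HK1 and 4259 for HKDC1, and by counts HK1 led in both libraries. HK1 thereby went from 50.9% to 70.6% of the summed hexokinase FPKM and HKDC1 from 48.0% to 27.9%, while the sum itself was 32.9 in the control and 37.3 with PGC-1α. The odds of an HK1 count against an HKDC1 count were 2.39 times as high in the PGC-1α library (2.18 to 2.61), a pair chosen after its values were seen. HK1 against HK2 gave an odds ratio of 1.03 (0.72 to 1.45). HKDC1 and HK1 are neighbours on the same strand, with 2424 bases between the end of HKDC1 and the start of HK1 in the files.

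GPI, phosphoglucose isomerase, which turns glucose-6-phosphate into fructose-6-phosphate (chromosome 19, 34359480 to 34402156), was the most abundant of the 9 higher genes by counts in the PGC-1α library. It had 27357 control counts and 46151 with PGC-1α, or 1003 and 1907 CPM. Its log2 ratio of 0.93 (0.91 to 0.95) exceeded that of 97.9% of all measured genes. PGM1, which links glucose-6-phosphate to glycogen, had 1663 and 2028 counts, at a log2 ratio of 0.46 (0.36 to 0.55), under 1.5-fold.

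Phosphofructokinase, the committed and most regulated step, also differed by isozyme. PFKM, the muscle-type gene (chromosome 12, 48105139 to 48146404), had 2456 and 3847 counts, at a log2 ratio of 0.82 (0.75 to 0.89). PFKP, the platelet type and the main form in these cells, had 18142 and 21163 counts, at a log2 ratio of 0.39 (0.37 to 0.42). PFKL, the liver type, had 2500 and 2235 counts, and its log2 ratio of 0.01 had an interval from -0.07 to 0.09. PFKM and PFKL were close in the control, at 12.4 and 10.3 FPKM, and further apart in the PGC-1α library, at 21.7 and 10.3 FPKM, an odds ratio of 1.75 (1.62 to 1.89). PFKP still held 85.9% of the summed phosphofructokinase FPKM in the control and 84.9% with PGC-1α. PFKM shares 628 exon bases with SENP1 on the other strand, which was less abundant and stood at 0.07.

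The PFKFB enzymes make and break down fructose-2,6-bisphosphate, the strongest activator of phosphofructokinase. PFKFB3, the form with high kinase activity, was by far the main one, with 17017 and 18280 counts and a log2 ratio of 0.28 (0.25 to 0.31). PFKFB4 had 280 and 393 counts and was higher, at 0.66 (0.44 to 0.89). It shares 289 of its 6107 exon bases with the less abundant UCN2 on the same strand, which had 108 and 113 counts. PFKFB2, the heart-type gene, had 681 and 791 counts and stood at 0.39 (0.24 to 0.54). PFKFB3 held 95.9% of the summed PFKFB level in FPKM in the control and 95.3% with PGC-1α, so the higher PFKFB4 made up 1.58% and 2.05%. The odds of PFKFB4 against PFKFB3 were 1.31 times as high (1.12 to 1.52).

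Aldolase splits the 6-carbon sugar into triose phosphates. ALDOA, its main gene here (chromosome 16, 30053090 to 30070457), had 30800 and 42987 counts, or 1129 and 1776 CPM, and a log2 ratio of 0.65 (0.63 to 0.67). ALDOC, the brain-type gene, had 72 and 103 counts, at a log2 ratio of 0.69 (0.24 to 1.14). ALDOA held 99.5% of the aldolase level in both libraries, and the odds ratio of ALDOC against ALDOA was 1.02 (0.76 to 1.39). The gene span of ALDOC overlaps a more abundant noncoding gene, AC005726.2, with 0 shared exon bases. TPI1, which interconverts the triose phosphates, had 21459 and 23665 counts, at a log2 ratio of 0.31 (0.29 to 0.34).

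**Figure D3:**
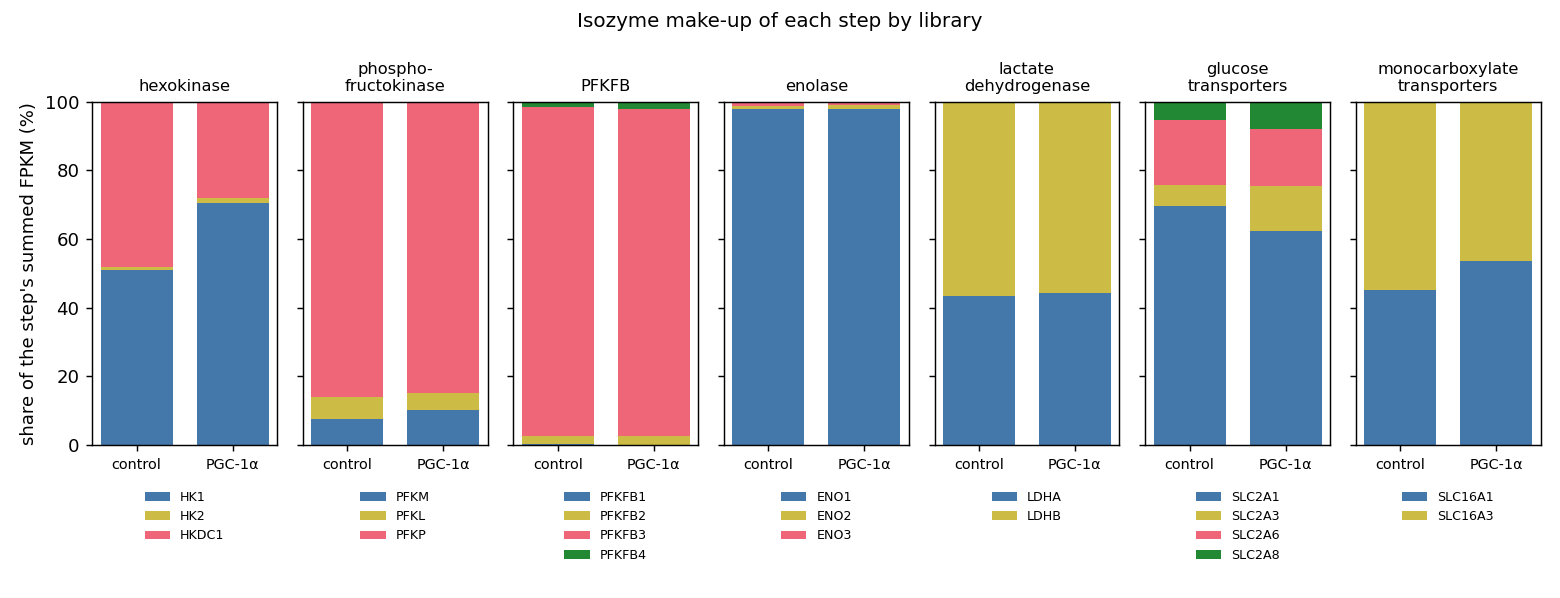
Share of each step's summed FPKM (percent, axis from 0 to 100) held by each isozyme or transporter gene in the control and PGC-1α libraries, 1 bar per library. HK1 goes from 50.9% to 70.6% of hexokinase and SLC2A3 from 5.96% to 13.1% of the glucose transporters, while ENO1 holds 97.8% and 97.9% of enolase.

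Promoter sequences are shown for GPI and ALDOA, the most abundant higher genes, for LDHA, an abundant gene near a ratio of 1, and for TPI1. Windows of 300 bases around RefSeq gene starts on GRCh38.p14 were at hand for 28 of the 31 genes, in 57 windows, since several genes have more than 1 start. Searched on both strands were TNAAGGTCA, the response element of the ERR nuclear receptors that PGC-1α coactivates, the cores ACGTG and GCGTG of the hypoxia response element, and the E-box CACGTG, which always contains ACGTG. TNAAGGTCA was found in 1 of the 57 windows, that of TPI1, and in 0.951% of all 35116 windows. ACGTG was found in 31.6% of the 57 windows and 21.4% of all, GCGTG in 42.1% and 36.5%, and CACGTG in 10.5% and 7.26%. Counted by gene, with a match in any of its windows, 14 of the 28 held ACGTG, 20 GCGTG, 6 CACGTG and 1 TNAAGGTCA. Of the 8 higher genes among them, 5 held ACGTG, 4 GCGTG, 3 CACGTG and 0 TNAAGGTCA. No share by gene over all genes was computed. The shares by window are no comparison for counts by gene, since a gene with more windows has more places for a match. A match describes the letters of a window and not bound protein. Capitals mark ACGTG in GPI, CACGTG in ALDOA and LDHA, and TNAAGGTCA, read on the opposite strand, in TPI1.
GPI: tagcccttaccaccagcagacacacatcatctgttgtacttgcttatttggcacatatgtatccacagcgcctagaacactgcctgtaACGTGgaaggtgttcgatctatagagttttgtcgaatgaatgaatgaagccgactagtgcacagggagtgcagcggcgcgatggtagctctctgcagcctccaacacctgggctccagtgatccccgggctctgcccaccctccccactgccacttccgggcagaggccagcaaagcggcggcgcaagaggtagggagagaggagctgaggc
ALDOA: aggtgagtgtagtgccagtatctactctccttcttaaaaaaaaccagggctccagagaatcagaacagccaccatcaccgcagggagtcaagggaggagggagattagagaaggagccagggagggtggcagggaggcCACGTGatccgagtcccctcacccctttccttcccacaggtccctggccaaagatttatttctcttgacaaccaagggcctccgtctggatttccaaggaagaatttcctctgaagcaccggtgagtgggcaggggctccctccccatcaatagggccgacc
LDHA: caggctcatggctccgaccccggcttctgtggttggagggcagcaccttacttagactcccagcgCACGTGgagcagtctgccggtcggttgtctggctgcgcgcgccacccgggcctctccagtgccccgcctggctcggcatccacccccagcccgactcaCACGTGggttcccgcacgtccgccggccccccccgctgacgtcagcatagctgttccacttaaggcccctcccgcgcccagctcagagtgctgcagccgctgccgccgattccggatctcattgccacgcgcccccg
TPI1: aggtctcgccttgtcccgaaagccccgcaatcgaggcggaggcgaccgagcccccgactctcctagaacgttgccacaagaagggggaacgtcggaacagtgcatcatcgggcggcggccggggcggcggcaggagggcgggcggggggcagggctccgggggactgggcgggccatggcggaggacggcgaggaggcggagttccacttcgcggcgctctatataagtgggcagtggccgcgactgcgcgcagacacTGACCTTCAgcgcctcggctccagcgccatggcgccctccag
The GPI window is chr19:34364742-34365041 with its match 162 bases upstream of the start. The ALDOA window is chr16:30064247-30064546, 1 of 3 for that gene, with its match 112 bases upstream. The LDHA window is chr11:18394313-18394612, 1 of 2 for that gene, with matches 185 and 87 bases upstream. The TPI1 window is chr12:6867281-6867580, also 1 of 2, with its match 8 bases downstream of the start. All 4 are printed on the plus strand, on which these genes lie.

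From glyceraldehyde-3-phosphate to pyruvate, none of the 7 measured genes was 1.5-fold apart. GAPDH, the oxidising step often used as a reference gene, had 93337 control counts and 91900 with PGC-1α, at a log2 ratio of 0.15 (0.14 to 0.16). PGK1, the first ATP-making step, had 17967 and 20869 counts and stood at 0.39 (0.36 to 0.42). PGAM1, phosphoglycerate mutase, had 16106 and 18026 counts and stood at 0.33 (0.30 to 0.37). PKM, pyruvate kinase, had the most counts of all, 123114 and 123196, and a log2 ratio of 0.17 (0.16 to 0.18). Counts per gene do not separate its M1 and M2 splice forms.

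The enolase genes all lay slightly below a ratio of 1. ENO1, the main form, had 105975 and 89928 counts, at a log2 ratio of -0.06 (-0.08 to -0.05). ENO2, the neuronal type, had 1202 and 1002 counts, and its log2 ratio of -0.09 (-0.21 to 0.03) included 0. ENO3, the muscle type, had 1387 and 1035 counts and stood at -0.25 (-0.37 to -0.13). ENO3 shares 111 of its 4292 exon bases with PFN1, a far more abundant gene on the other strand that stood at -0.10, so its count is uncertain. The small ratios of GAPDH, ENO1, PKM and LDHA moved outside their counting intervals when the libraries were scaled by DESeq2, to 0.13, -0.08, 0.15 and 0.11, with the same sign.

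The lactate end of the pathway was nearly level. LDHA, the isozyme that favours lactate formation, had 56423 control counts and 54621 with PGC-1α, at a log2 ratio of 0.13 (0.11 to 0.14). LDHB, the heart-type isozyme, had 35425 and 32871 counts, at a log2 ratio of 0.06 (0.04 to 0.09). Per length LDHB was the more abundant of the pair, at 56.7% of their summed FPKM in the control and 55.6% with PGC-1α. By counts LDHA was the more abundant in both libraries, and the listed lengths were 2983 bases for LDHB and 6210 for LDHA. The odds ratio of LDHB against LDHA was 0.96 (0.94 to 0.98).

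The lactate transporters differed in opposite directions, both under 1.5-fold. SLC16A1, the MCT1 gene for lactate uptake and release, had 2062 and 2330 counts, at a log2 ratio of 0.35 (0.26 to 0.43). SLC16A3, the MCT4 gene known for lactate export from glycolytic cells, had 4227 and 3404 counts, at a log2 ratio of -0.14 (-0.21 to -0.07). SLC16A3 held 54.8% of their summed FPKM in the control and 46.3% with PGC-1α, with an odds ratio of SLC16A3 against SLC16A1 of 0.71 (0.66 to 0.77). These shares depend on the listed lengths, 8995 bases for SLC16A3 and 5312 for SLC16A1, which take in all exons. By counts SLC16A3 was the more abundant in both libraries. SLC16A3 shares 482 of its 8995 exon bases with CSNK1D on the other strand, which was more abundant and stood at -0.06. The SLC16A3 count, and with it the odds ratio, is therefore uncertain. BSG, the chaperone that brings both transporters to the membrane, stood at 0.13 (0.10 to 0.16).

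Among 22 other glycolytic enzymes and regulators, 7 were measured, 1 was higher and 0 were lower, with a median log2 ratio of 0.13. The higher one was LDHD, the mitochondrial D-lactate dehydrogenase, with 74 counts in the control and 256 with PGC-1α and a log2 ratio of 1.96 (1.58 to 2.36). BPGM, which makes 2,3-bisphosphoglycerate, stood at -0.24, TIGAR, a fructose-2,6-bisphosphatase induced by p53, at 0.20, and the galactose mutarotase gene GALM at 0.17, all under 1.5-fold. The gluconeogenic gene FBP1 had 0 counts in both libraries. Of 28 other glucose and monocarboxylate transporters and their chaperones, 12 were measured, 0 were higher and 1 was lower, with a median of -0.11. The lower one, SLC2A12, which encodes GLUT12, had 97 and 31 counts, at a log2 ratio of -1.46 (-2.11 to -0.88), and its span overlaps a more abundant gene. SLC16A4 stood at -0.54 and SLC16A13 at -0.29, both under 1.5-fold.

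The side branches of glycolysis held no gene past 1.5-fold. All 12 listed pentose phosphate genes were measured and their median log2 ratio was -0.14. PGD stood at -0.34, TKT at -0.29 and TALDO1 at -0.29. For glycogen metabolism 16 of 17 genes were measured, with a median of -0.09. STBD1 stood at -0.50, GYG2 at -0.45, the glycogen synthase gene GYS1 at 0.44 and PPP1R3D, whose span overlaps a more abundant gene, at 0.36. In the tricarboxylic acid cycle, which burns the pyruvate that glycolysis supplies, 8 of 17 enzyme genes were higher, 0 were lower and the median was 0.57 (0.39 to 0.97). IDH3A stood at 1.52, the citrate synthase gene CS at 1.05 and SUCLG1 at 1.02. Of 22 hypoxia-inducible genes outside glycolysis, 7 were higher, 0 were lower and the median was 0.28 (0.07 to 0.71). The farthest from 0 were EGLN3 at 1.73, ANGPTL4 at 1.03, CA9 at 0.92 and PDK1 at 0.86. Of the 7 higher genes, EGLN3, CA9, ANKRD37 and LOX overlap a more abundant gene, and the last 3 had between 38 and 64 counts in each library. CA12 at -0.45, BNIP3L at -0.27, NDRG1 at -0.18 and BNIP3 at -0.10 lay below 0 with intervals that exclude it, all under 1.5-fold. The list summed to 1678 CPM in both libraries, a sum that rests largely on CA12, at 654 CPM in the control and 480 with PGC-1α. By gene, 17 of the 22 lay above 0. These lists are described side by side, and no difference between them was tested.

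**Figure D4:**
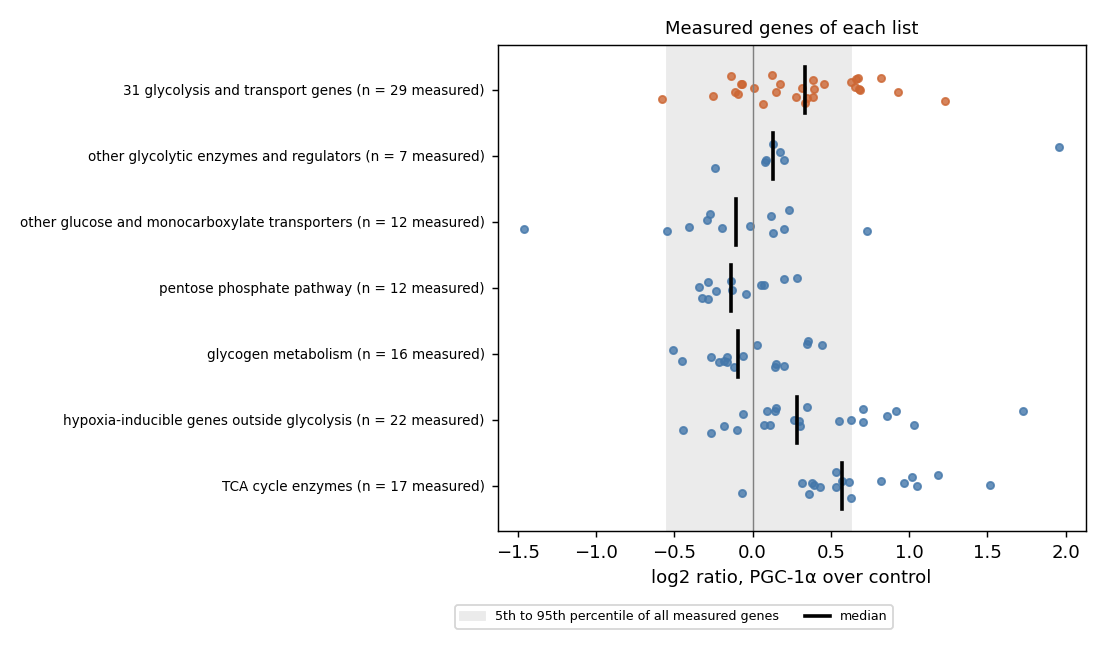
Log2 ratio of each measured gene, PGC-1α library over control, for the 31 glycolysis and transport genes and for 6 other lists, with a black bar at each list's median and a grey band from the 5th to the 95th percentile of all measured genes. The medians run from -0.14 for the pentose phosphate pathway through 0.33 for glycolysis and transport to 0.57 for the tricarboxylic acid cycle.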

How the data were processed

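The deposited tables hold, per the file headers, a raw count and, in separate tables, an FPKM value for each gene, with symbol, coordinates and length. Per the submitters' processing notes, the tools were Cuffdiff 2.1.1, Cufflinks 2.1.1, TopHat2 2.0.9 and Bowtie2 2.0.6, with no role stated. The genome build, strand setting and counting program are not stated in what was used here. Gene spans matched GENCODE 29 on GRCh38 exactly for 97.6% of shared gene identifiers and for 25 of the 31 genes, so coordinates are the files' own and read as GRCh38. The authors' FPKM equalled the deposited count divided by length and by 1 library size, for all genes above 0, and that size followed DESeq2's size factors; FPKM is therefore no separate measurement.

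Counts were scaled with TMM in edgeR 4.0.16 (R 4.3.3; factors 1.01 and 0.995). Log2 ratios used counts plus 0.5, with the exact Clopper-Pearson 95% interval of the split of 2 counts, over all genes. The interval of a list's median comes from binomial order statistics over its genes. It treats chosen genes as independent draws and does not cover the spread between cultures. Reads are not independent molecules, so the other intervals and limits cover counting error only. A quasi-likelihood test needs residual degrees of freedom, which 1 library per group does not give, so no p-value is printed. Odds ratios have exact conditional intervals, or log-odds normal intervals where the 4 counts exceed 20000. The ratio script was checked on simulated counts with known changes. Scripts used Python 3.11.15, scipy 1.17.1, pandas 2.3.3 and DESeq2 1.42.0.

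The members, the lists and the isozyme pairs were chosen with earlier results of these data known. All 31 genes are named; in other lists, called genes are named where 5 or fewer, and up to 4 genes farthest from 0 whose interval excludes 0, except that some genes this rule names are not reported here.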

Additional observations from a re-analysis of the deposited data

How the results depend on the processing

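The count of 9 higher genes was 9 under DESeq2 size factors, total counts, no low-count filter and summed copies, 8 with genes overlapping a more abundant one left out, 8 on FPKM with a pseudocount of 0.1 and 7 when only genes of 5 CPM or more were kept. It was 5 on FPKM with a pseudocount of 1, which shrinks low genes, 1 at 2-fold and 15 at a log2 threshold of 0.32. The count of lower genes was 0, and became 1 under DESeq2 size factors, total counts and FPKM with a pseudocount of 0.1, and 1 at a log2 threshold of 0.32. The median log2 ratio ranged from 0.27 to 0.34 over these alternatives. Of 145 single-gene values, 126 stayed within their counting interval, 19 moved outside it and 0 of the higher genes changed sign. These values are not separate checks. With copies summed, genes without copy counts could not move, and FPKM follows the DESeq2 scaling. Summing copies could move only the odds ratios of the enolase, LDHB against LDHA and SLC2A3 against SLC2A1 pairs, and these stayed inside their intervals. The other pairs with a value involve genes without copy counts, so their odds ratios could not move. No paired analysis was possible because each group holds 1 library, and for the same reason no library could be left out. The 2 libraries allow no estimate of the spread between cultures. HK2 and ALDOC, each with 103 counts or fewer per library, are the least certain of the higher genes.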

Other observations

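GAPDH, TPI1 and ENO2 lie close together on chromosome 12, with 328.7 kb between GAPDH and TPI1 and 42.8 kb between TPI1 and ENO2 in the files. Their log2 ratios were 0.15, 0.31 and -0.09. PDK1, the pyruvate dehydrogenase kinase gene whose product limits the conversion of pyruvate to acetyl-CoA inside mitochondria, had 151 control counts and 243 with PGC-1α, at a log2 ratio of 0.86 (0.56 to 1.16). It belongs to the list of hypoxia-inducible genes.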
